A study of Mus musculus with 7 samples.

Results

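The 7 genes described here carry MHC class II antigen presentation: the class II chains *H2-Aa*, *H2-Ab1* and *H2-Eb1*, the peptide editor chains *H2-DMa* and *H2-DMb1*, the invariant chain *Cd74* and the class II transactivator *Ciita*. They were chosen by symbol, as every probe whose transcript accession names one of them, and are 7 of 21367 genes named on the array. They have 8 probes, with 2 for *H2-Ab1*, and all 7 passed the filter on dim probes. RNA from the nasal cavity of female BALB/c mice that inhaled diesel exhaust particles (DEPs) was compared with RNA of control mice on 2-colour Agilent arrays, to find genes whose expression changed with exposure. In the exposed groups, mice that were 6 weeks old at the start inhaled 100 µg/m3 DEPs suspended in saline, 1 hour a day and 5 days a week, from an ultrasonic nebulizer in a closed chamber. Control mice received saline in the same way, as the study's methods state for 4 weeks of exposure. Exposure lasted 4 weeks (4 arrays) or 8 weeks (3 arrays), and each array held DEP RNA labelled with Cy5 and control RNA labelled with Cy3. The labels call the arrays biological replicates of 32 mice in all, and do not say how many mice gave the RNA of an array.

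No array had its dyes swapped, and for a single probe the effect of the dye cannot be told apart from that of DEPs. Each exposure time has a slide of its own, and a difference between the times cannot be told apart from 1 between slides. On an array, 18533 to 25091 probes had a DEP signal well above background and 16937 to 26957 a control signal, and no spot was saturated. Log2 ratios of pairs of arrays correlated across 25197 probes at 0.44 to 0.49 within 4 weeks, 0.71 to 0.88 within 8 weeks and 0.09 to 0.29 between the times. All 10 olfactory and all 10 respiratory epithelium markers that were looked up passed the filter. Olfactory markers differed between DEP and control RNA: at 4 weeks 7 of 10 were higher and 0 lower, at 8 weeks 0 were higher and 8 lower. Over all genes tested, 21.6% were higher and 16.6% lower at 4 weeks, and 20.3% higher and 16.9% lower at 8 weeks. *Omp*, the protein of mature olfactory neurons, had a log2 ratio of 0.89 at 4 weeks and -0.43 at 8 weeks (adjusted p = 3.87e-05 and 0.00237).

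MHC class II molecules display peptides from engulfed proteins to CD4 T cells. Their alpha and beta chains pair in the endoplasmic reticulum with the invariant chain, which blocks the groove until proteases in the endosome cut it away and H2-DM exchanges its last fragment for a peptide. Dendritic cells, B cells and macrophages make these molecules, and CIITA, which does not bind DNA by itself, is the switch that turns their genes on through factors bound to the X and Y boxes of their promoters.

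Promoter windows from 250 bases before to 50 bases after the start in RefSeq (GRCm38.p6) were read for 4 of the 7 genes, *H2-Aa*, *H2-Eb1*, *H2-DMa* and *H2-DMb1*. No window was at hand for *H2-Ab1* and *Ciita*, and that of *Cd74* was not read. The windows were searched on both strands for a core of the X box, AGNNACNNATG, and for the core of the Y box, ATTGG, which do not overlap each other in these windows. Of 32851 promoter windows of that length, 3.09% hold the X core, 37.4% the Y core and 0.0639% an X core followed by a Y core after 15 to 30 bases. *H2-Eb1* and *H2-DMb1* have both in that order, 22 and 23 bases apart, as do *H2-Ob* and *H2-Eb2*, which makes 4 of the 21 such windows. The *H2-Aa* window has a Y core alone, and of the 2 windows of *H2-DMa* 1 has neither and the other a Y core alone. This holds for the 11 letters of the X core as written. Looser forms of the X box were not searched for, so the windows are not shown to lack an X box. Positions -140 to -21 from the start are shown for the 3 chain genes below, 5′ to 3′ along the gene. They were chosen by outcome: *H2-Eb1* and *H2-DMb1* were 2 of the 3 genes that rose at 8 weeks, and *H2-Aa*, which is near background, was not. The other gene that rose, *H2-Ab1*, has no window, and *H2-Ob*, which has both cores, did not rise at 8 weeks (-0.08). A link between the cores and the ratios was not tested. Capitals mark the X core (AGCAACTGATG in *H2-Eb1*, AGTAACTGATG in *H2-DMb1*) and the Y core on this strand. They lie at chr17:34305727-34305846 (plus strand), chr17:34153051-34153170 (plus strand) and chr17:34287844-34287963 (minus strand) in GRCm38.p6, and a match is a match of letters only.
H2-Eb1: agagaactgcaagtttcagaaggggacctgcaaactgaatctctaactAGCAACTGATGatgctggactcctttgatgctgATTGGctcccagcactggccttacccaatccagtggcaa
H2-DMb1: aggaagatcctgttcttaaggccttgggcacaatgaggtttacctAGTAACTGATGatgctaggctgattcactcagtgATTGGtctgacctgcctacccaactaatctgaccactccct
H2-Aa: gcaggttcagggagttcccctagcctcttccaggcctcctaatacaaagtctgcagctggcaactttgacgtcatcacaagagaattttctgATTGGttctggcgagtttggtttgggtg

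At 8 weeks 3 of the 7 genes rose with DEPs and 0 fell, called where the p adjusted by Benjamini and Hochberg over all probes was 0.05 or less, against 20.3% of all 20693 genes tested that rose and 16.9% that fell. They were *H2-Ab1* (1.42-fold), *H2-Eb1* (1.28-fold) and *H2-DMb1* (1.20-fold). At 4 weeks 0 rose and 2 fell, *H2-Aa* and *Ciita*, against 21.6% of all genes that rose and 16.6% that fell. Both were dim there, *H2-Aa* being well above background in 1 of 4 DEP and 1 of 4 control channels and *Ciita* in 1 of 4 and 2 of 4, so that the size of their falls is not well measured. No member passed the study's thresholds of an unadjusted p of 0.01 and a 2-fold change at either time, which 1.3% of all genes did at 4 weeks and 2.94% at 8 weeks. Over all arrays, meaning the unweighted mean of the 4-week and 8-week means, 2 members rose, *H2-Ab1* and *H2-DMb1*, against 23.3% of all genes. The median log2 ratio of the 7 genes was -0.09 at 4 weeks and 0.09 at 8 weeks, beside 0.00 and 0.01 over all genes tested. In tissue RNA, fewer cells of a type and less RNA per cell cannot be told apart, which holds for every ratio given here.

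**Figure D1:**
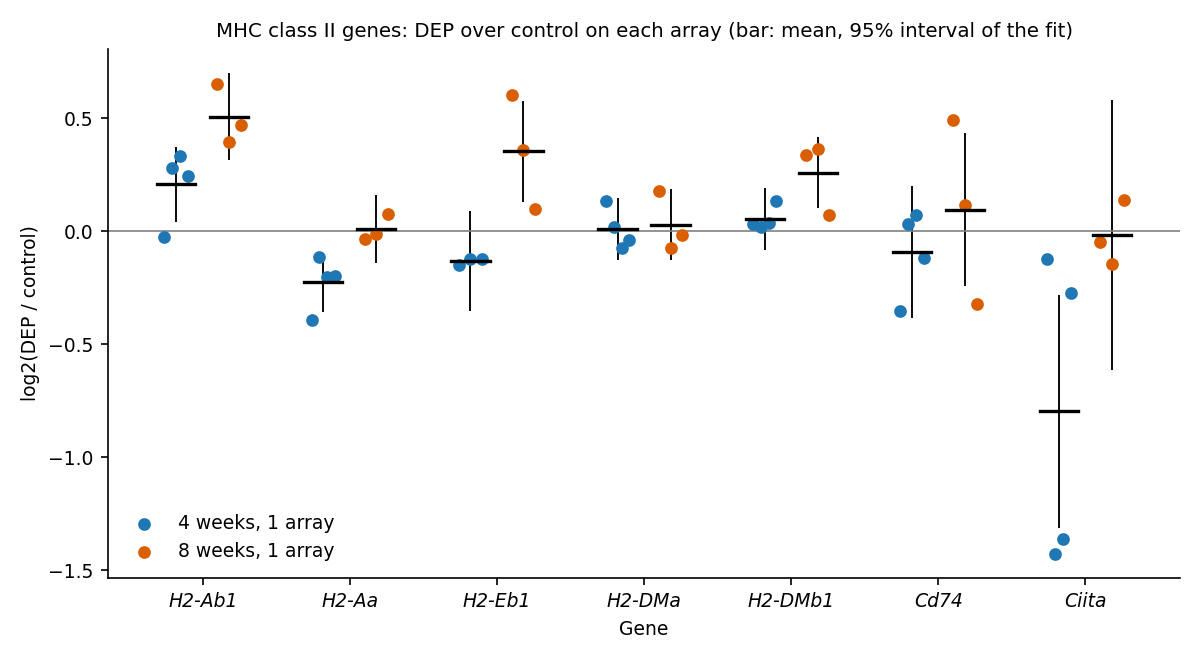
Each point is the log2 ratio of DEP over control RNA on 1 array after loess normalization, for the 7 class II genes (x axis), with 4-week arrays in blue and 8-week arrays in orange. Horizontal bars are means and vertical bars their 95% intervals from the model, and *H2-Ab1* at 8 weeks (mean 0.51) has all 3 points above 0 while *Ciita* at 4 weeks (mean -0.80) has 2 points near -1.4.

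*H2-Ab1* encodes the beta chain of the I-A molecule. Its normalized log2 intensity at 8 weeks was 10.83, 10.77 and 10.73 in DEP RNA of replicates 1 to 3 and 10.17, 10.37 and 10.26 in the control RNA of the same arrays. The groups did not overlap, which was so for 49.5% of all genes at 8 weeks, and each array showed a rise of 0.65, 0.40 and 0.47. The mean log2 ratio was 0.51 ± 0.13 (SD, n = 3), with a 95% interval of 0.31 to 0.70 and an adjusted p of 0.00268.

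At 4 weeks *H2-Ab1* stood at 10.33, 10.54, 10.71 and 10.59 in DEP RNA and at 10.35, 10.26, 10.38 and 10.34 in control RNA. Replicates 2 to 4 were higher with DEPs by 0.25 to 0.33 and replicate 1 differed by -0.03, so that the groups overlapped. The mean of 0.21 ± 0.16 (SD, n = 4) did not pass the threshold (adjusted p = 0.0542), and without replicate 1 it was 0.29 (adjusted p = 0.0135). The difference between the times, 0.30, did not pass it either (adjusted p = 0.0761), while the mean of the 4-week and 8-week means was 0.36 (adjusted p = 0.00161). Ordered by level, DEP RNA at 8 weeks (10.77 ± 0.05) came before DEP RNA at 4 weeks (10.54 ± 0.16), control at 4 weeks (10.33 ± 0.05) and control at 8 weeks (10.27 ± 0.10), and both control groups overlapped.

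The other probe of *H2-Ab1*, slightly dimmer, had the same direction at 8 weeks (0.43 ± 0.20, n = 3, adjusted p = 0.0211) and no direction at 4 weeks (-0.05 ± 0.24, n = 4, adjusted p = 0.686). Its difference between the times was 0.48 (adjusted p = 0.0442). The probes differed most on replicate 3 of 4 weeks, by 0.67 in log2 ratio, where the control signal of the dimmer probe was 11.08 against 10.22 to 10.32 on the other 4-week arrays. On the other 6 arrays they differed by 0.00 to 0.22.

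*H2-Eb1* encodes the beta chain of the I-E molecule. At 8 weeks its log2 intensity was 10.70, 10.64 and 10.29 in DEP RNA and 10.09, 10.28 and 10.19 in control RNA. DEP RNA was higher on all 3 arrays, by 0.60, 0.36 and 0.10, and the groups did not overlap, as for 49.5% of all genes at 8 weeks. The lowest DEP level (10.29) lay next to the highest control level (10.28). The mean was 0.35 ± 0.25 (SD, n = 3), with a 95% interval of 0.13 to 0.58 and an adjusted p of 0.0258. Left without replicate 1 it was 0.23 (adjusted p = 0.0938) and without replicate 2 it was 0.35 (adjusted p = 0.111), neither past the threshold.

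At 4 weeks the spot on replicate 1 was marked as not uniform and left out, and the 3 other arrays gave *H2-Eb1* levels of 10.25, 10.47 and 10.24 in DEP RNA and 10.40, 10.60 and 10.36 in control RNA. DEP RNA was lower on each of them, by a narrow 0.12 to 0.15, with overlapping groups. The mean of -0.13 ± 0.01 (SD, n = 3) did not pass the threshold (adjusted p = 0.302). *H2-Eb1* was the member whose ratio differed between the times, by 0.49 (adjusted p = 0.0334), against 14.8% of all genes with a positive difference past the threshold. That call was lost when any array other than replicate 3 of 8 weeks and replicate 1 of 4 weeks, which gave no value, was left out (adjusted p = 0.0566 to 0.100).

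**Figure D2:**
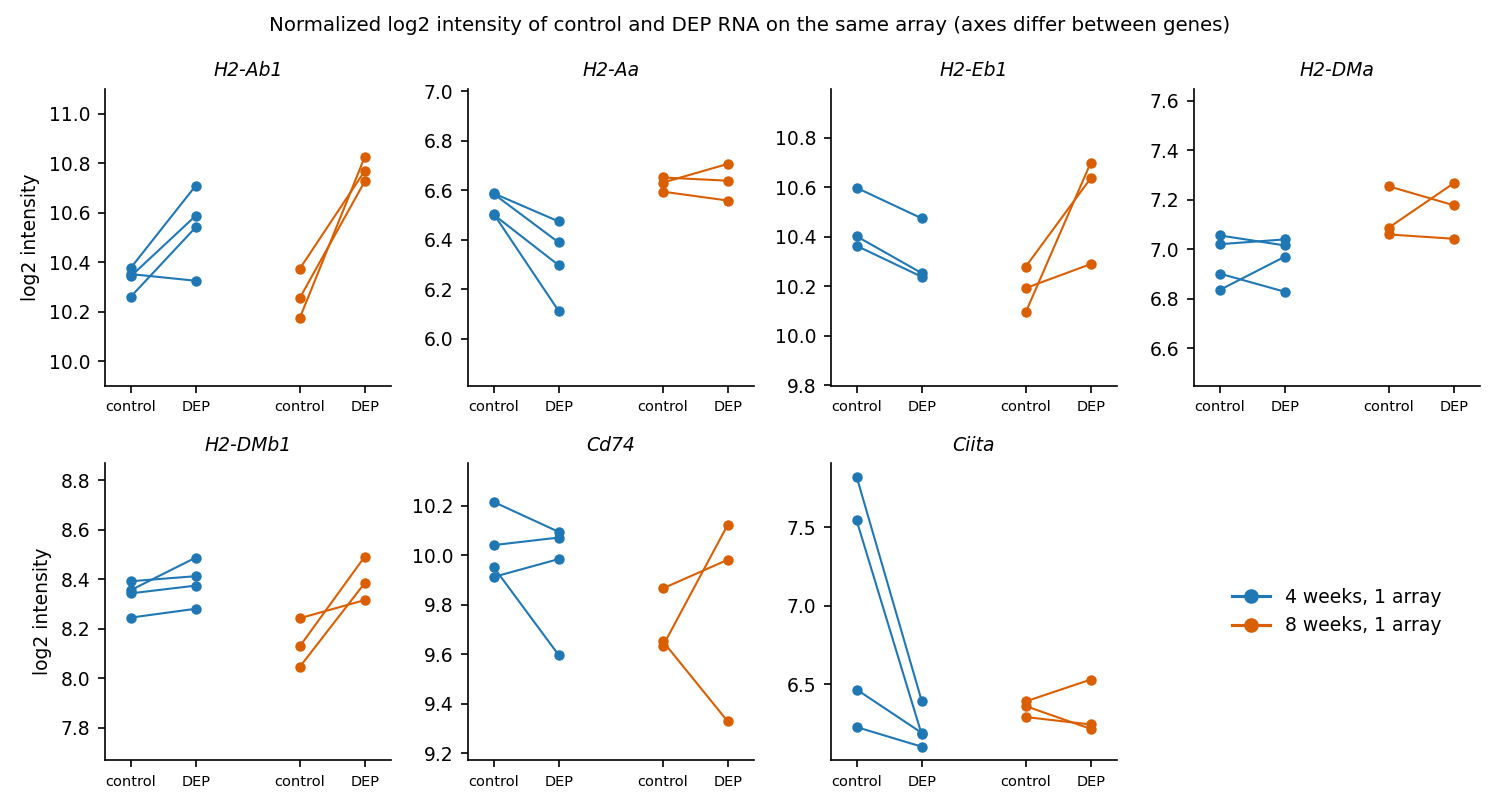
Normalized log2 intensity (y axis, a range of its own for each gene) in control and DEP RNA, joined by a line for each array, at 4 weeks (blue) and 8 weeks (orange). The lines of *H2-Ab1*, *H2-Eb1* and *H2-DMb1* rise on all 3 arrays of 8 weeks, and those of *H2-Aa* fall on all 4 arrays of 4 weeks.

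*H2-Aa*, the alpha chain that pairs with *H2-Ab1*, was near background. It was well above background on 1 of 4 DEP and 1 of 4 control channels at 4 weeks, and on 3 of 3 and 2 of 3 at 8 weeks. Its levels at 4 weeks were 6.11, 6.47, 6.30 and 6.39 in DEP RNA and 6.50, 6.59, 6.50 and 6.59 in control RNA. DEP RNA was lower on all 4 arrays with no overlap, as for 28.7% of all genes at 4 weeks, and the mean log2 ratio was -0.23 ± 0.12 (SD, n = 4, adjusted p = 0.0156). At 8 weeks the ratios were -0.04, -0.01 and 0.08, with a mean of 0.01 (95% interval -0.14 to 0.16, adjusted p = 0.933). The fall at 4 weeks did not pass the threshold with Feature Extraction's processed signals (-0.37, adjusted p = 0.124), without background correction (-0.13, adjusted p = 0.123) or with the background fitted on all spots (-0.20, adjusted p = 0.0615), and the difference between the times did not pass it (0.24, adjusted p = 0.0719).

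H2-DM, which loads peptides onto class II, is made of the chains *H2-DMa* and *H2-DMb1*. *H2-DMb1* stood at 8.38, 8.49 and 8.32 in DEP RNA at 8 weeks and at 8.05, 8.13 and 8.24 in control RNA. All 3 arrays were higher with DEPs, by 0.34, 0.36 and 0.07, and the groups did not overlap, as for 49.5% of all genes at 8 weeks. The mean of 0.26 ± 0.16 (SD, n = 3) passed the threshold (adjusted p = 0.0205), and did not without replicate 1 (0.22, adjusted p = 0.0956) or replicate 2 (0.21, adjusted p = 0.133).

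At 4 weeks *H2-DMb1* had ratios of 0.03, 0.02, 0.04 and 0.13, all above 0 and small, with a mean of 0.05 ± 0.05 (n = 4, adjusted p = 0.487). It was higher in DEP RNA on 7 of 7 arrays, and the mean of the 4-week and 8-week means was 0.16 (adjusted p = 0.0262). That call was lost without replicate 4 of 4 weeks or without replicate 1 or 2 of 8 weeks (adjusted p = 0.0642 to 0.104). *H2-DMa* did not follow *H2-DMb1*. The gene was dim at 4 weeks, where its control signal was well above background on 2 of 4 arrays. Its ratios ran from -0.07 to 0.13 at 4 weeks and from -0.08 to 0.18 at 8 weeks, and the 95% intervals of the means were -0.13 to 0.15 and -0.13 to 0.19 (adjusted p = 0.908 and 0.788).

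*Cd74*, the invariant chain, varied between arrays in its ratio. Its levels at 8 weeks were 10.12, 9.98 and 9.33 in DEP RNA and 9.63, 9.87 and 9.65 in control RNA. Replicate 1 was higher by 0.49, replicate 2 by 0.12, and replicate 3 was lower (-0.32), so that the mean of 0.09 had an interval of -0.24 to 0.43 (adjusted p = 0.663). At 4 weeks the ratios were -0.36, 0.03, 0.07 and -0.12, with a mean of -0.09 (95% interval -0.39 to 0.20, adjusted p = 0.587). These intervals hold both a fall and a rise, and the data do not show that *Cd74* did not change. Replicate 1 of 8 weeks had the highest 8-week ratio not only of *Cd74* but also of *H2-Ab1*, *H2-Eb1* and *H2-DMa*.

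*Ciita*, the transactivator, was dim, and well above background on 2 of 7 DEP channels and 3 of 7 control channels. At 4 weeks its levels were 6.10, 6.40, 6.18 and 6.19 in DEP RNA and 6.23, 7.82, 7.54 and 6.47 in control RNA. The control levels of replicates 2 and 3, with raw medians of 236 and 191 over a background of 57 and 53, stood apart from the 5 other control channels, whose raw medians were 68 to 78. The ratios were -0.12, -1.43, -1.36 and -0.28, and their mean of -0.80 ± 0.69 (SD, n = 4) had an adjusted p of 0.0257. The call was lost when replicate 2 was left out (-0.59, adjusted p = 0.0868) and when replicate 3 was (-0.61, adjusted p = 0.0826). With both left out, a step chosen after seeing the data, the mean was -0.20 (adjusted p = 0.19). It also missed the threshold with the background fitted on all spots (-0.48, adjusted p = 0.0954). With Feature Extraction's processed signals the mean of *Ciita* was larger, at -2.23 (adjusted p = 0.0113), and its difference between the times, 0.78 as fitted here (adjusted p = 0.123), was 2.48 (adjusted p = 0.0404). At 8 weeks the mean was -0.02 (95% interval -0.61 to 0.58, adjusted p = 0.969).

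The rises at 8 weeks depended on the correction for brightness. Before loess, Cy5 over Cy3 fell with brightness on these arrays, though hardly on replicate 2 of 4 weeks. The 500 tested probes nearest to *H2-Ab1* in brightness were read after each array was centred on its median. Their median log2 ratio was -0.004 on replicate 2 of 4 weeks and -0.20 to -0.12 on the other 4-week arrays. As the mean over the arrays it was -0.33 at 8 weeks and -0.12 at 4 weeks. The corresponding 8-week values were -0.33 for *H2-Eb1*, -0.25 for *H2-DMb1* and -0.33 for *Cd74*, against 0.01 for the dim *H2-Aa*. With median centring and no loess, *H2-Ab1* was 0.18 at 8 weeks (adjusted p = 0.208), *H2-Eb1* 0.02 (adjusted p = 0.897) and *H2-DMb1* 0.03 (adjusted p = 0.781), and 0 members passed the threshold. That setting puts the median of all genes at -0.10, so that relative to it these genes stood at 0.28, 0.13 and 0.14. It also moves the share of calls that are rises from 54.5% to 26.9% at 8 weeks, and from 56.6% to 42.5% at 4 weeks. With the processed signals, in which the authors' software had normalized the dyes, the 3 rises were 0.52, 0.37 and 0.36.

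**Figure D3:**
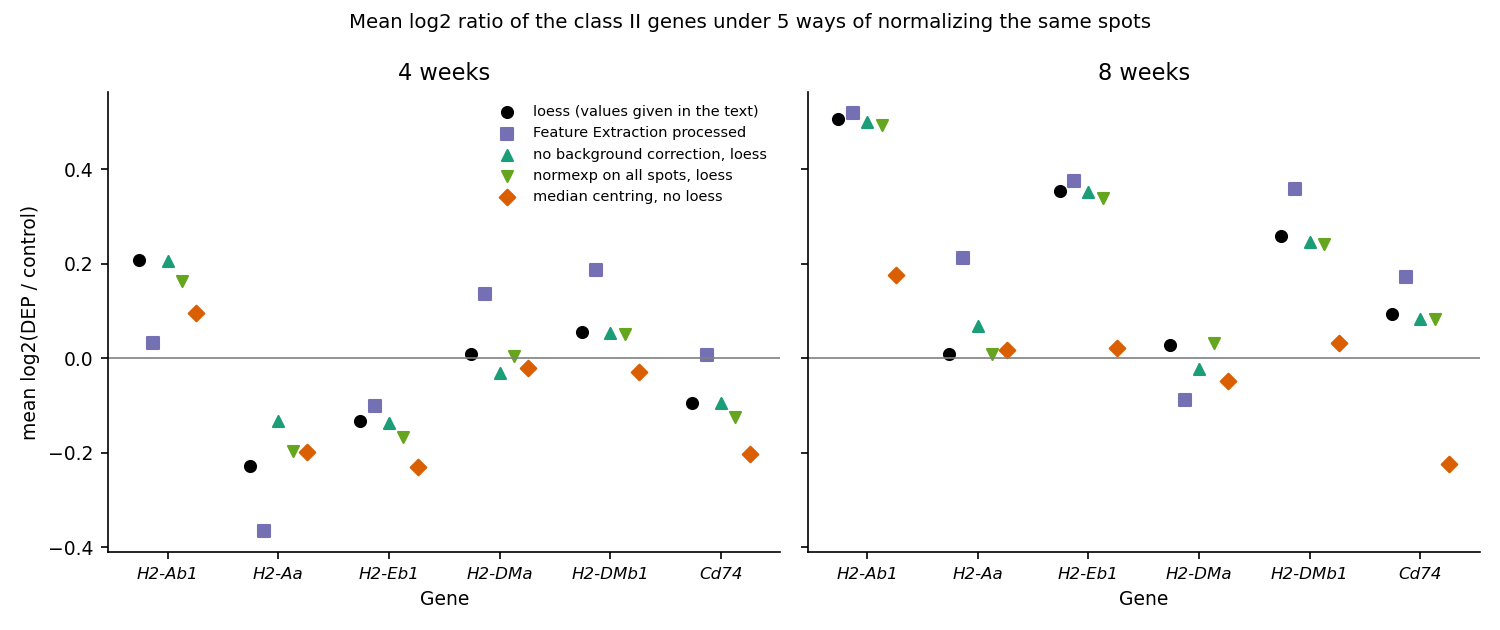
Mean log2 ratio of DEP over control (y axis) for 6 class II genes at 4 weeks (left) and 8 weeks (right), with a symbol for each of 5 ways of normalizing the same spots. At 8 weeks *H2-Ab1*, *H2-Eb1* and *H2-DMb1* keep together under the 4 ways with loess or Feature Extraction's dye normalization and stand lower with median centring alone (0.18, 0.02 and 0.03). *Ciita* is left out for its scale.

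The other genes of class II handling were taken from a list of 11 proteases and regulators, of which 1 rose and 3 fell at 4 weeks, and 3 rose and 3 fell at 8 weeks. Of all genes tested, 21.6% rose and 16.6% fell at 4 weeks, and 20.3% rose and 16.9% fell at 8 weeks. *Marchf1*, the ubiquitin ligase that sends class II from the cell surface to lysosomes, was higher on 7 of 7 arrays, by 0.82 to 0.90 (adjusted p = 7.83e-06 at 4 weeks and 9.69e-06 at 8 weeks). Its other probe did not share this, with means of -0.40 at 4 weeks and -0.02 at 8 weeks. Among proteins that prepare antigen, *Ctsl*, the cathepsin that cuts the invariant chain in thymic epithelium, was lower on all arrays (-0.80 and -0.41, adjusted p = 0.000485 and 0.0187). *Ifi30*, the reductase that opens disulfides of antigens, was lower on all arrays too (-0.37 and -0.39, adjusted p = 0.00227 and 0.00342). *Ctss*, the protease that cuts the invariant chain in dendritic cells and B cells, was -0.15 at 4 weeks and 0.16 at 8 weeks, neither past the threshold (adjusted p = 0.0538 and 0.0716), with a difference between the times that was (0.30, adjusted p = 0.022). *Ctsh*, an aminopeptidase of lysosomes, rose at 8 weeks (0.22, adjusted p = 0.0164).

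Of 5 further class II, H2-DM and H2-DO chains, 4 had a named probe on the array and 2 passed the filter. *H2-Ea* had no named probe and was not measured. *H2-Oa* and *H2-Ob* form H2-DO, the inhibitor of H2-DM in B cells. *H2-Oa* had ratios of -0.27 to 0.15 at 4 weeks and of 0.26 to 0.32 at 8 weeks, the latter with a mean of 0.28 just short of the threshold (adjusted p = 0.0512). *H2-Ob* was -0.92 on replicate 1 of 4 weeks and 0.16 to 0.27 on the 3 others, and -0.13 to -0.03 at 8 weeks. Neither passed the threshold at either time. At 4 weeks the control channel was well above background on 0 of 4 arrays for *H2-Oa* and, for *H2-Ob*, on replicate 1 alone.

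The factors on the X and Y boxes were 7 of 7 tested, with 1 rise and 0 falls at 4 weeks and 0 rises and 2 falls at 8 weeks. Rises and falls over all genes, for these factors and the interferon route below, were 21.6% and 16.6% at 4 weeks. At 8 weeks they were 20.3% and 16.9%. *Rfx5*, the DNA-binding chain of the X box complex, was well above background in 1 of 7 DEP and 2 of 7 control channels and did not pass the threshold (-0.22 and -0.05, adjusted p = 0.242 and 0.84). *Creb1*, which binds beside it, was 0.35 at 4 weeks and -0.19 at 8 weeks, both past the threshold (adjusted p = 0.00195 and 0.041), with a control signal well above background on 1 of 4 and 2 of 3 arrays. Its other probe was -0.04 and -0.02. *Nfyc*, a chain of the Y box factor, was -0.33 at 8 weeks (adjusted p = 0.0121). Of 9 genes on the route by which interferon-gamma turns on *Ciita*, 8 were tested, and *Ifng* was not well above background on enough arrays. At 4 weeks 0 of the 8 were called by limma, with 1 of them, the kinase *Jak2* (-0.15), below an unadjusted p of 0.05, and at 8 weeks 2 rose, the receptor chain *Ifngr1* (0.41, adjusted p = 0.00551) and the feedback inhibitor *Socs1* (0.36, adjusted p = 0.0155). *Irf1*, a factor that this route induces, was 0.07 and 0.02 (adjusted p = 0.487 and 0.87).

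MHC class I presentation, which shows peptides from inside the cell to CD8 T cells, had 14 genes tested, of which 0 rose and 4 fell at 4 weeks and 3 rose and 1 fell at 8 weeks. Among all genes, 21.6% rose and 16.6% fell at 4 weeks, and 20.3% rose and 16.9% fell at 8 weeks. *B2m*, the light chain of class I, was -0.11, -0.34, -0.51 and -0.39 on the 4-week arrays and 0.33, 0.33 and 0.19 on the 8-week arrays. It was lower on all 4 arrays of 4 weeks (mean -0.34, adjusted p = 0.00701) and higher on all 3 of 8 weeks (mean 0.29, adjusted p = 0.0239), with a difference of 0.62 (adjusted p = 0.00395). The rise at 8 weeks was lost with median centring (-0.03, adjusted p = 0.822), as were those of the class II chains. The heavy chain *H2-K1* was -0.33 at 4 weeks (adjusted p = 0.00672) and 0.08 at 8 weeks (adjusted p = 0.466). *Nlrc5*, the transactivator of class I, was 0.01 at 4 weeks and 0.23 at 8 weeks (adjusted p = 0.924 and 0.0324), with a control signal well above background on 1 of 4 and 2 of 3 arrays. Its other probe was 0.06 at both times. *Tapbp*, which holds class I in the loading complex, was 0.06 and -0.29 (adjusted p = 0.349 and 0.00386).

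**Figure D4:**
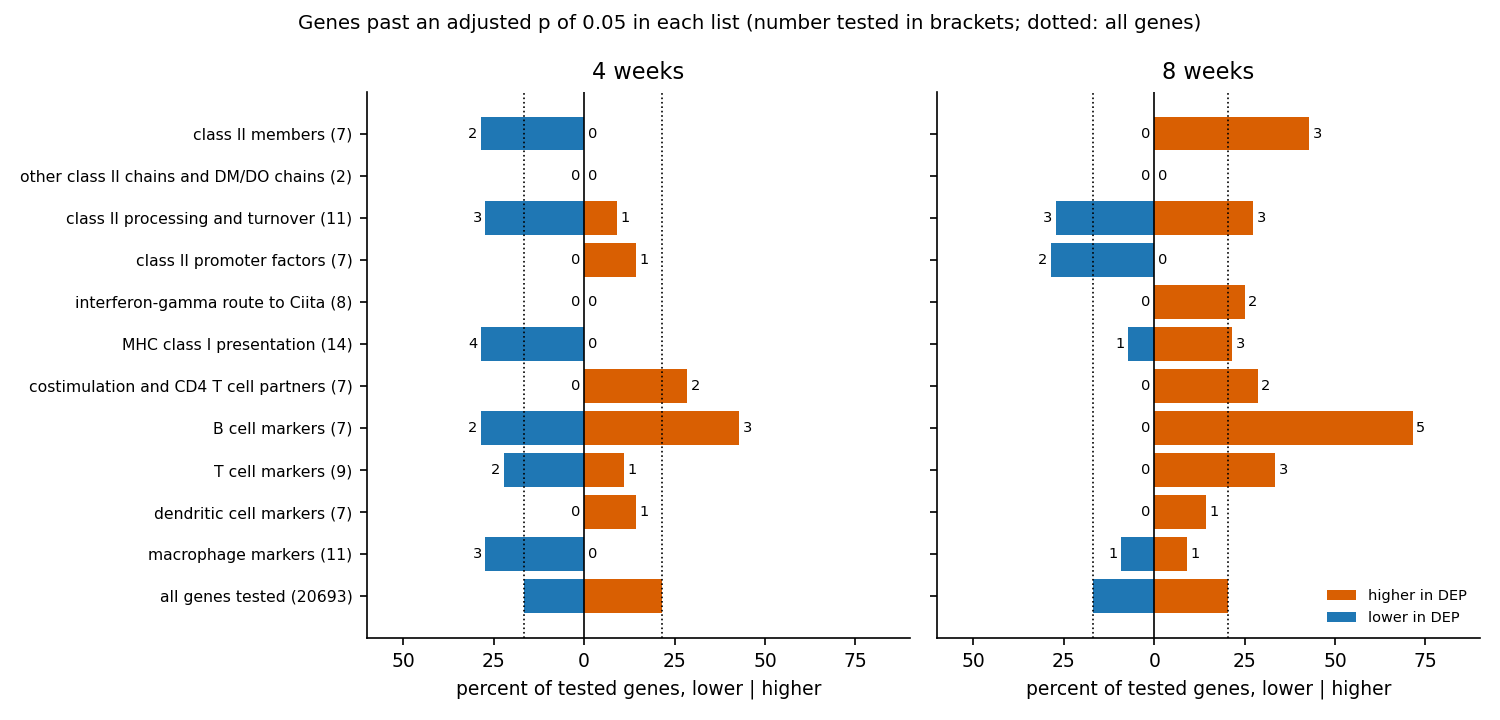
For each list of genes (y axis, with the number tested in brackets), the bars give the percent of tested genes past an adjusted p of 0.05 that were lower (blue, to the left) or higher (orange, to the right) in DEP RNA at 4 and 8 weeks, with the number of genes beside each bar and all genes tested as dotted lines. The B cell markers at 8 weeks have 5 of 7 higher, against 20.3% of all genes.

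Cells that carry class II were followed by marker lists. Of 9 B cell markers 7 were tested, and 5 rose and 0 fell at 8 weeks (median 0.43, against 0.01 for all genes), while 3 rose and 2 fell at 4 weeks (median -0.09). All genes gave 20.3% rises and 16.9% falls at 8 weeks, and 21.6% and 16.6% at 4 weeks. The summed normalized intensity of the B cell markers was 1135 to 1342 in DEP RNA and 885.3 to 906 in control RNA at 8 weeks, and 871.9 to 968.3 and 832.2 to 936.2 at 4 weeks. *Ms4a1*, the CD20 antigen, was lower at 4 weeks (-0.29, adjusted p = 0.00757) and higher at 8 weeks (0.43, adjusted p = 0.00227). It was dim, well above background in 1 of 4 DEP and 1 of 4 control channels at 4 weeks and in 3 of 3 and 2 of 3 at 8 weeks, and its means with the processed signals were -1.08 and 1.44. *Cr2*, the complement receptor of B cells, rose at both times (0.17 and 0.47, adjusted p = 0.0437 and 0.00106). *Cd22*, an inhibitory receptor of B cells, rose at both times as well (0.68 and 0.73, adjusted p = 0.000814 and 0.00102), and is a gene that the study selected on these samples, as is *Cd80* below. *Blk*, a kinase of the B cell receptor, rose less at both times (0.18 and 0.22, adjusted p = 0.0358 and 0.0294). At 8 weeks the rises of *Ms4a1*, *Cr2* and *Cd22* were also called with median centring (0.41 to 0.49).

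Of 12 dendritic cell markers 7 were tested, with 1 rise at each time, *Itgax*, the CD11c integrin chain, at 4 weeks (0.19, adjusted p = 0.0207) and *Ccr7* at 8 weeks. *Ccr7*, the receptor that leads mature dendritic cells and lymphocytes to lymphoid tissue, was 1.99, 2.06 and 2.19 at 8 weeks (mean 2.08, adjusted p = 1.21e-06) and -0.26 to -0.07 at 4 weeks (mean -0.15, adjusted p = 0.061). The markers *Xcr1*, *Clec9a*, *Cd209a* and *Cd207* did not pass the filter. The 6 tested markers other than *Ccr7* had means of -0.03 to 0.27 at 8 weeks, and 0 of them were called by limma (4 had an unadjusted p under 0.05). The summed level of the 7 was 1938 to 2215 in DEP RNA and 925.9 to 966.7 in control RNA at 8 weeks, most of which gap is *Ccr7*: without it, a step chosen after seeing the data, the sums were 707.6 to 748.9 and 627.1 to 645.3. With all 7 they were 719.9 to 777.4 and 710 to 1093 at 4 weeks, where the control signal of *Flt3* was high on replicates 2 and 3, the same channels as for *Ciita*. Of 11 macrophage markers 0 rose and 3 fell at 4 weeks, and 1 rose and 1 fell at 8 weeks, with sums of 3824 to 4849 in DEP and 4125 to 4764 in control RNA at 8 weeks. Beside both lists, 21.6% of all genes rose and 16.6% fell at 4 weeks, and 20.3% rose and 16.9% fell at 8 weeks. The complement chains split, *C1qa* being lower (-0.41 and -0.45, adjusted p = 0.00311 and 0.00383) and *C1qb* higher at 8 weeks (0.63, adjusted p = 0.000304). The part of these cell types in the class II ratios was not tested.

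The partners of class II on CD4 T cells and in costimulation had 7 of 11 genes tested, and the same count of 2 rose and 0 fell at each time. For them and the T cell markers below, the shares of rises and falls over all genes were 21.6% and 16.6% at 4 weeks. At 8 weeks these shares were 20.3% and 16.9%. *Cd4*, the co-receptor that binds class II, was 0.27 to 0.48 at 4 weeks and 0.40 to 0.80 at 8 weeks (means 0.38 and 0.63, adjusted p = 0.00583 and 0.00116). Its other probe gave 0.03 and 0.12. *Cd80*, the ligand that costimulates T cells, was 0.43 and 0.57 (adjusted p = 0.00668 and 0.00341), with a control signal well above background on 1 of 4 and 3 of 3 arrays. Of 9 T cell markers 1 rose and 2 fell at 4 weeks, and 3 rose and 0 fell at 8 weeks. Their summed level at 8 weeks was 2133 to 2937 in DEP RNA and 2035 to 2161 in control RNA. At 4 weeks it was 2270 to 2452 in DEP RNA and 2241 to 15370 in control RNA, where the highest sum was that of replicate 2, on which *Lck*, named after its values were seen, had a ratio of -6.83.

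**Figure D5:**
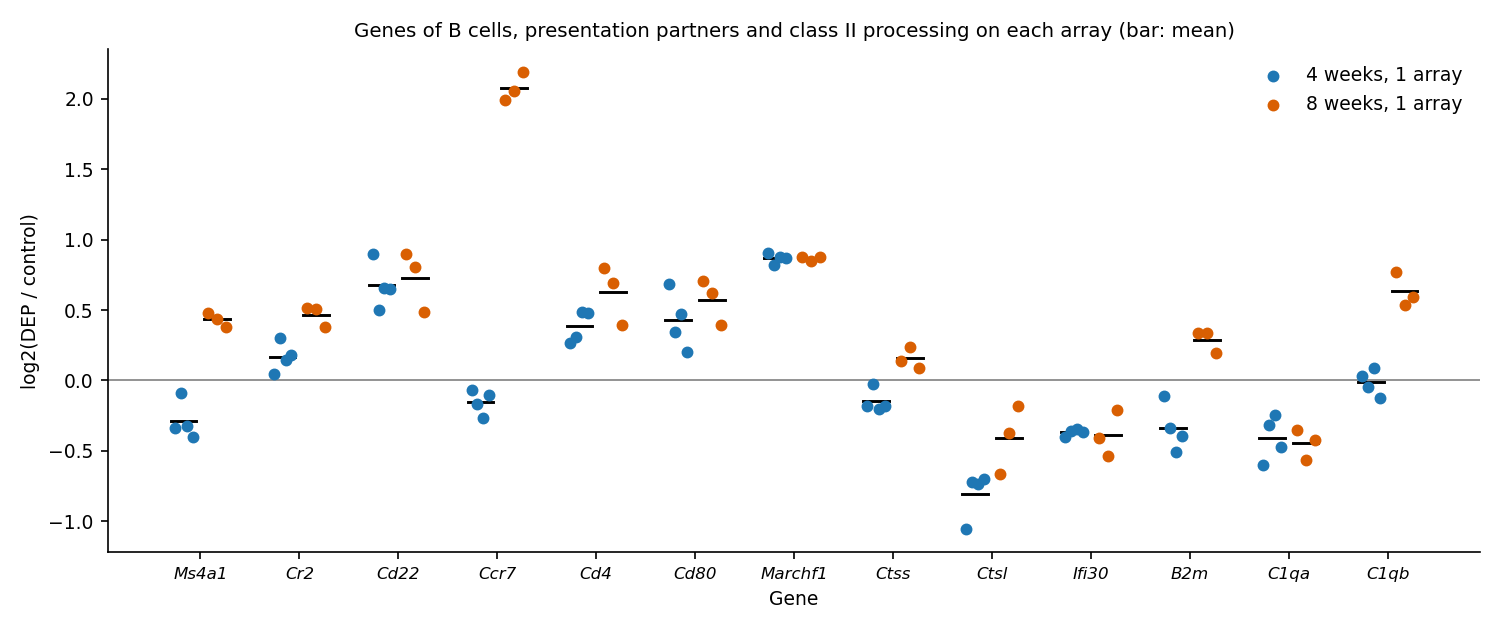
Log2 ratio of DEP over control (y axis) on each array for 13 genes named in the text (x axis), 4 weeks in blue and 8 weeks in orange, with bars at the means. *Ccr7* stands near 2 on all 3 arrays of 8 weeks, *Marchf1* near 0.87 on all 7 arrays, and *Ctsl*, *Ifi30* and *C1qa* lie below 0 on every array.

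The genes outside these lists whose levels were most like the class II genes were found over the 14 channel values (7 DEP and 7 control). They were ranked by Pearson's r with the mean centred profile of *H2-Ab1*, *H2-DMb1* and *Cd74*. These members had a usable spot well above background in both channels of all 7 arrays. *H2-Eb1* was bright enough but left out, as its spot on replicate 1 of 4 weeks was not uniform. Among 10264 genes ranked, the 10 highest were *Wdr5* (0.86), *Ifitm3* (0.86), *Gpx1* (0.85), *Tead2* (0.85), *Fxyd2* (0.84), *Mettl1* (0.83), *Phgdh* (0.82), *Atp2a3* (0.82), *Zfp703* (0.81) and *Aopep* (0.81). The 14 values share arrays, slides and dyes, and the members themselves had an r of 0.72 to 0.78 with that profile, of which each is a part. *Ifitm3*, an antiviral membrane protein that interferons induce, was 0.04 at 4 weeks and 0.40 at 8 weeks (adjusted p = 0.725 and 0.00905), and *Atp2a3*, a calcium pump of blood cells among others, was 0.13 and 0.64 (adjusted p = 0.268 and 0.00184).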

How the data were processed

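Members and lists were chosen with earlier results of these data known. The authors deposited 1 Feature Extraction (10.10.1.1) text table for each array, with the median intensity of every spot and of its background, a processed intensity (background-subtracted and dye-normalized) and a log10 ratio, which was not used. The normalization that the study's methods name is not part of them. Here limma 3.58.1 in R 4.3.3 corrected the medians by normexp (offset 50). Spots flagged by the scanner software as background outliers did not enter its fit, because they moved the fitted mean on some arrays. In the DEP channel of replicate 2 of 4 weeks it was -614.5 with all spots and -11.69 without those flagged. On replicate 2 of 8 weeks it was -67.51 and -11.83. The first of these arrays held 9 spots with a background far above their signal, whose own part was not tested. Loess then normalized the log2 ratios of each array, non-uniform spots were dropped, and repeated spots were averaged. Channel levels are Aquantile-normalized log2 intensities, and levels of different probes were not compared.

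RefSeq accessions (GRCm38.p6) named 28330 of 39429 probes. Testing took the 25197 probes with a signal well above background, whichever the channel, on 3 or more of the 7 arrays. They stand for 20693 genes or transcripts, each read by its brightest tested probe. A linear model (lmFit and eBayes) gave a mean for each time, their difference and the unweighted mean of both, called over all arrays here. Its p-values were adjusted by Benjamini and Hochberg over all probes, with a threshold of 0.05. Steps were tested on simulated data. The number of arrays limits the precision, and p-values measure the spread between arrays. All members are named, and genes named from a list are among its 6 with the lowest p over all arrays (some of these are left unnamed, a choice made with their values seen), beside *B2m*, *Ctss*, *Rfx5*, *Ifng*, *Irf1* and *Nlrc5*. Of the genes listed, 2 are not reported here and entered no count of a list. Alternatives were the background correction, the normalization, the filter, the choice of probe, the methods' t-test, each time alone, each array left out and a replicate block. Replicate numbers do not pair the arrays (correlations of same-numbered arrays' deviations -0.006, -0.007 and 0.017).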

Additional observations from a re-analysis of the deposited data

Results flagged for a closer look

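Among 49 groups of 4 values of the genes named, 7 held a value far from the other 3 by Dixon's criterion, which chance gives in about 1 in 20 independent groups. These groups are not independent, since some are the ratio and levels of the same probe. Some genes were also named with their values seen, so the count cannot be read as an excess. Of the class II genes the values so marked were the log2 ratio of *H2-DMb1* on replicate 4 of 4 weeks (0.13) and the control level of the dimmer *H2-Ab1* probe on replicate 3 of 4 weeks (11.08). The others were 4-week log2 ratios of *Ctsl* (-1.06) and *Irf1* (-0.15) on replicate 1, of *Ctss* (-0.0223) on replicate 2, of *H2-Ob* (-0.92) on replicate 1 and of *Lck* (-6.83) on replicate 2.

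The ratio of DEP over control differed between 8 and 4 weeks past an adjusted p of 0.05 (limma) for *H2-Eb1* (0.49, adjusted p = 0.0334) and for the dimmer probe of *H2-Ab1* (0.48, adjusted p = 0.0442), which is not the probe read for that gene. *H2-Eb1* was lower in DEP RNA on 3 of 3 measured arrays of 4 weeks and higher on 3 of 3 of 8 weeks. Among the other named genes the difference was positive for *Ccr7* (2.23), *Ms4a1* (0.72), *C1qb* (0.64), *B2m* (0.62), *Ifngr1* (0.56), *Socs1* (0.49), *H2-K1* (0.41), *Ctss* (0.30) and *Cr2* (0.30). It was negative for *Omp* (-1.32), *Creb1* (-0.54) and *Tapbp* (-0.34). Exposure time and slide cannot be told apart in any of these differences.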

How the results depend on the processing

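The number of members past the threshold at 4 weeks, 2 as reported, was 0 with normexp fitted on all spots and with the methods' t-test not paired within arrays. It was 1 with Feature Extraction's processed signals and without background correction (*Ciita*), and 1 with only the arrays of 4 weeks (*H2-Aa*). It was also 1 with the strict filter and with the methods' t-test paired within arrays, but of a member not called as reported. These were *H2-Ab1* with the filter (0.21, adjusted p = 0.0352), a rise, and *H2-Eb1* with the paired t-test (-0.13, adjusted p = 0.0276). The strict filter (both channels on all 7 arrays) kept 3 members, and dropped *H2-Eb1* only for its non-uniform spot. At 8 weeks, 3 as reported, the number of members was 0 with median centring and no loess, 1 with the t-test not paired and 0 with it paired. For the difference between the times, 1 as reported, it was 3 with the processed signals, 2 with the mean over all probes of a gene, and 0 with median centring, with no filter and with the paired t-test (the unpaired gives no such difference). Over all arrays, 2 as reported, it was 0 with median centring and 1 with either t-test. Each array left out in turn gave 1 to 3 at 4 weeks, 1 to 3 at 8 weeks, 0 to 2 for the difference and 1 to 3 over all arrays. It was 1 at 4 weeks without replicate 2 or 3 of that time, 1 at 8 weeks without replicate 1 or 2 of that time, and 1 over all arrays without replicate 4 of 4 weeks or replicate 1 or 2 of 8 weeks. The difference gave 2 without replicate 1 of 4 weeks or replicate 3 of 8 weeks and 0 without any other array. Without replicates 2 and 3 of 4 weeks together, a step chosen after seeing the data, it was 0 at 4 weeks, 0 for the difference and 1 over all arrays. Keeping non-uniform spots, also chosen after seeing the data, changed none of the 4 counts. A replicate block gave 0 for the difference (*H2-Eb1* 0.36, adjusted p = 0.16), and the replicate numbers do not pair the arrays. At the study's thresholds the methods' t-test called 253 genes at 4 weeks and 584 at 8 weeks not paired, and 252 and 509 paired, before adjustment.

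No member that was called turned its direction under these settings. Among the other named genes, median centring gave -0.0298 for *B2m*, -0.10 for *Ctsh* and -0.28 for *Irf1* at 8 weeks, and -0.18 for *Ctss* and -0.0706 for *Ctsh* over all arrays. With arrays left out, *H2-Ob* at 4 weeks ran from -0.16 to 0.23 and *Lck* over all arrays from -0.91 to 0.25, and without replicates 2 and 3 of 4 weeks *Lck* was 0.27. The percent of all genes called ran from 17.4% to 50.7% at 4 weeks and from 2.79% to 48.5% at 8 weeks, the last range starting at the paired t-test, and the difference fell from 30.9% to 15.5% with the block. Rises were 56.6% of the calls at 4 weeks as reported, 67.5% with the processed signals and 42.5% with median centring. At 8 weeks they were 54.5% as reported and 26.9% with median centring, under which the median ratio of all genes was -0.10. The cause of these changes was not tested. *H2-Aa*, *Ciita*, *Rfx5*, *H2-Oa*, *H2-Ob*, *Ms4a1*, *Creb1*, *Nlrc5* and *Flt3* lie near background. So do *H2-DMa*, *Cd80*, *Lck* and *Socs1* in control RNA at 4 weeks, and this limits what the ratios of all these genes can show.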
